A study of Mus musculus with 19 samples.

Results

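Collagen genes were followed across 5 treatment groups of mouse oral tumours. The members were the protein-coding genes whose symbol is Col, a number, the letter a and a number, and which had 10 or more counts in 3 or more libraries. Of 44 such symbols in the table, which lists 55487 genes, 37 met the rule, and all 37 also passed the filter for testing. They comprised 10 fibrillar genes, 6 of type IV, 4 of type VI, 2 of type VIII, Col7a1, 6 fibril-associated (FACIT) genes, 4 transmembrane genes, 2 multiplexins and 2 others. The 7 below the limit were Col2a1, Col6a4, Col6a5, Col9a1, Col9a2, Col10a1 and Col19a1. Just inside the limit, Col11a1 reached 10 counts in 6 libraries and Col26a1 in 7. Just outside, Col6a5 reached it in 1 library, and the highest counts of Col9a2 and Col2a1 in any library were 9 and 7.

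Collagens are secreted or membrane proteins in which 3 chains wind into a triple helix. Fibrillar collagens (types I, III and V) form the cables of the stroma and come mainly from fibroblasts. Type IV forms the sheet of basement membranes, type VII anchors the epithelial basement membrane to the stroma, and type XVII spans the membrane of basal keratinocytes in hemidesmosomes. In oral carcinoma the tumour epithelium and the reactive stroma around it both contribute collagen RNA.

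The tissue was oral squamous cell carcinoma, from C57BL/6J mice that drank 4NQO (4-nitroquinoline 1-oxide), a DNA-damaging carcinogen, at 100 µg/ml for 10 weeks, starting at 6 weeks of age. The carcinogen was common to all groups. The groups were vehicle (4 libraries), regorafenib at 5 mg/kg/day (4), anti-PD1 (3), regorafenib with anti-PD1, called the combination (5), and an anti-CD40 agonist (3). Regorafenib blocks several kinases, among them receptors of vessel and stromal growth factors, anti-PD1 blocks an inhibitory receptor of T cells, and CD40 is an activating receptor of antigen-presenting cells. The labels give no antibody doses and no separate dose for the combination, and do not state that every library had its own mouse. The p-values therefore rest on library-to-library spread, which may be partly technical. Library totals ran from 16776177 to 24969492 counts. All 12 squamous epithelium markers and all 14 skeletal muscle markers were detected in every library. The summed muscle markers ranged from 23250.6 to 47762.8 counts-per-million (CPM), so the samples held muscle RNA beside the tumour. The summed salivary gland markers ranged from 38.03 CPM in vehicle 3 to 17857 CPM in combination 5, with 16842 CPM in vehicle 2.

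The collagens together took 0.107% of counts in vehicle 2, the lowest library, and 0.197% in regorafenib 4, the highest. Col17a1 alone held 42.0% of the collagen counts, Col7a1 8.09%, Col3a1 6.58% and Col4a1 6.10%. On a scale per exon length, Col17a1 stood first at 98.1 ± 18.6 CPM per kilobase (mean ± SD, n = 19). Col4a1 followed at 11.6 ± 2.31, Col7a1 at 11.03 ± 2.61, Col6a1 at 9.65 ± 1.99, Col3a1 at 9.41 ± 2.29 and Col4a2 at 8.85 ± 1.53 CPM per kilobase, and these neighbours differed by less than their spread. Col1a1 had 6.67 ± 2.08 and Col1a2 5.41 ± 1.62 CPM per kilobase. The order below Col17a1 depends on the length used. Per kilobase of the longest transcript Col3a1 came second at 16.6, Col4a1 next at 13.1, then Col1a2 at 12.6 and Col7a1 at 12.3. The scarcest member was Col11a1, a minor fibrillar chain typical of cartilage, at 0.03 CPM per kilobase. The highest levels of the members were spread over 10 libraries and the lowest over 12. Anti-PD1 1 was highest for 10 members, combination 1 for 9 and regorafenib 4 for 8. Vehicle 2 was lowest for 7, vehicle 4 and regorafenib 2 for 6 each, and anti-CD40 3 for 5.

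**Figure D1:**
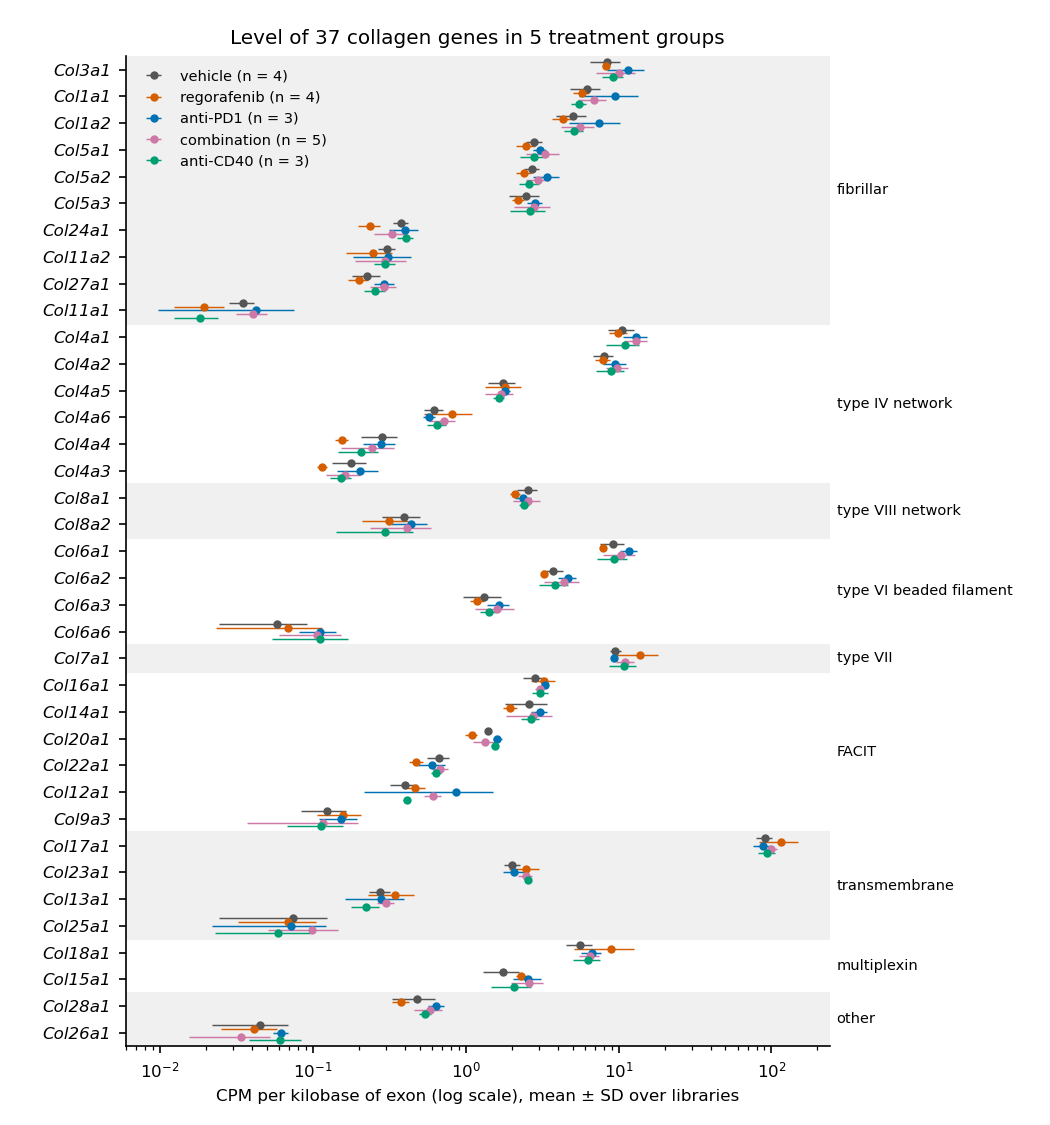
Level of each collagen gene by treatment group, in CPM per kilobase of exon on a log scale, grouped by collagen class. Points are group means and bars ± SD over the libraries of a group; Col17a1, at 98.1 CPM per kilobase over all libraries, stands apart from the rest, and the 5 groups overlap for most members.

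Few collagens passed the test in any comparison. A gene was called at an adjusted p under 0.05 (edgeR's quasi-likelihood test, Benjamini-Hochberg over 16909 genes). Regorafenib against vehicle called 6.32% of all genes, and of the collagens 1 of 37 fell and none rose. The combination against regorafenib called 10.5% of all genes, and 2 of 37 collagens rose and none fell. Both shares of the collagens lie below those backgrounds. These comparisons share the 4 regorafenib libraries, so they are not independent of each other.

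With the settings above edgeR called no collagen in 5 other comparisons, and neither did DESeq2. These were anti-PD1 against vehicle (background 0%), the combination against vehicle (0.0237%), anti-CD40 against vehicle (0%), the combination against anti-PD1 (0.00591%) and the interaction term for both drugs (0.627%). In the same order 5, 4, 1, 1 and 1 of 37 collagens had an unadjusted p under 0.05, beside 9.32%, 10.8%, 6.06%, 9.94% and 15.8% of all genes. With the salivary gland markers as a covariate, edgeR called Col22a1 in the interaction (adjusted p = 0.0402). The test of any difference among the 5 groups called 4.49% of all genes and no collagen, with 12 of 37 at an unadjusted p under 0.05 against 25.9% of all genes. DESeq2 called 7 collagens in that test. That count is not to be set beside 4.49%, since calls over all genes there ran from 6 to 2519 over 10 other settings (760 in the main fit). The smallest edgeR adjusted p were 0.0512 for Col20a1, 0.0807 for Col24a1 and 0.1003 for Col12a1.

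As a family, the collagens lay slightly lower than vehicle with regorafenib, and slightly higher under anti-PD1 and in the combination group. With regorafenib 25 of 37 were lower than in vehicle, with a median log2 change of -0.17 beside 0.00 over all genes. In the combination against regorafenib 27 were higher, with a median of 0.35 beside -0.01 over all genes. The unadjusted p was under 0.05 for 16 of these 37 (43.2%, all genes 28.1%), while it was for 9 of 37 with regorafenib (24.3%, all genes 24.5%). Against vehicle, 30 of 37 were higher under anti-PD1 (median 0.22), 29 in the combination group (median 0.16) and 23 under anti-CD40 (median 0.05), with no call. Of all genes 49.8%, 53.3% and 53.6% were higher in those comparisons. Without 1 library the medians ran from 0.13 to 0.33, from 0.11 to 0.27 and from -0.07 to 0.13, so under anti-CD40 the sign depends on a single library.

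**Figure D2:**
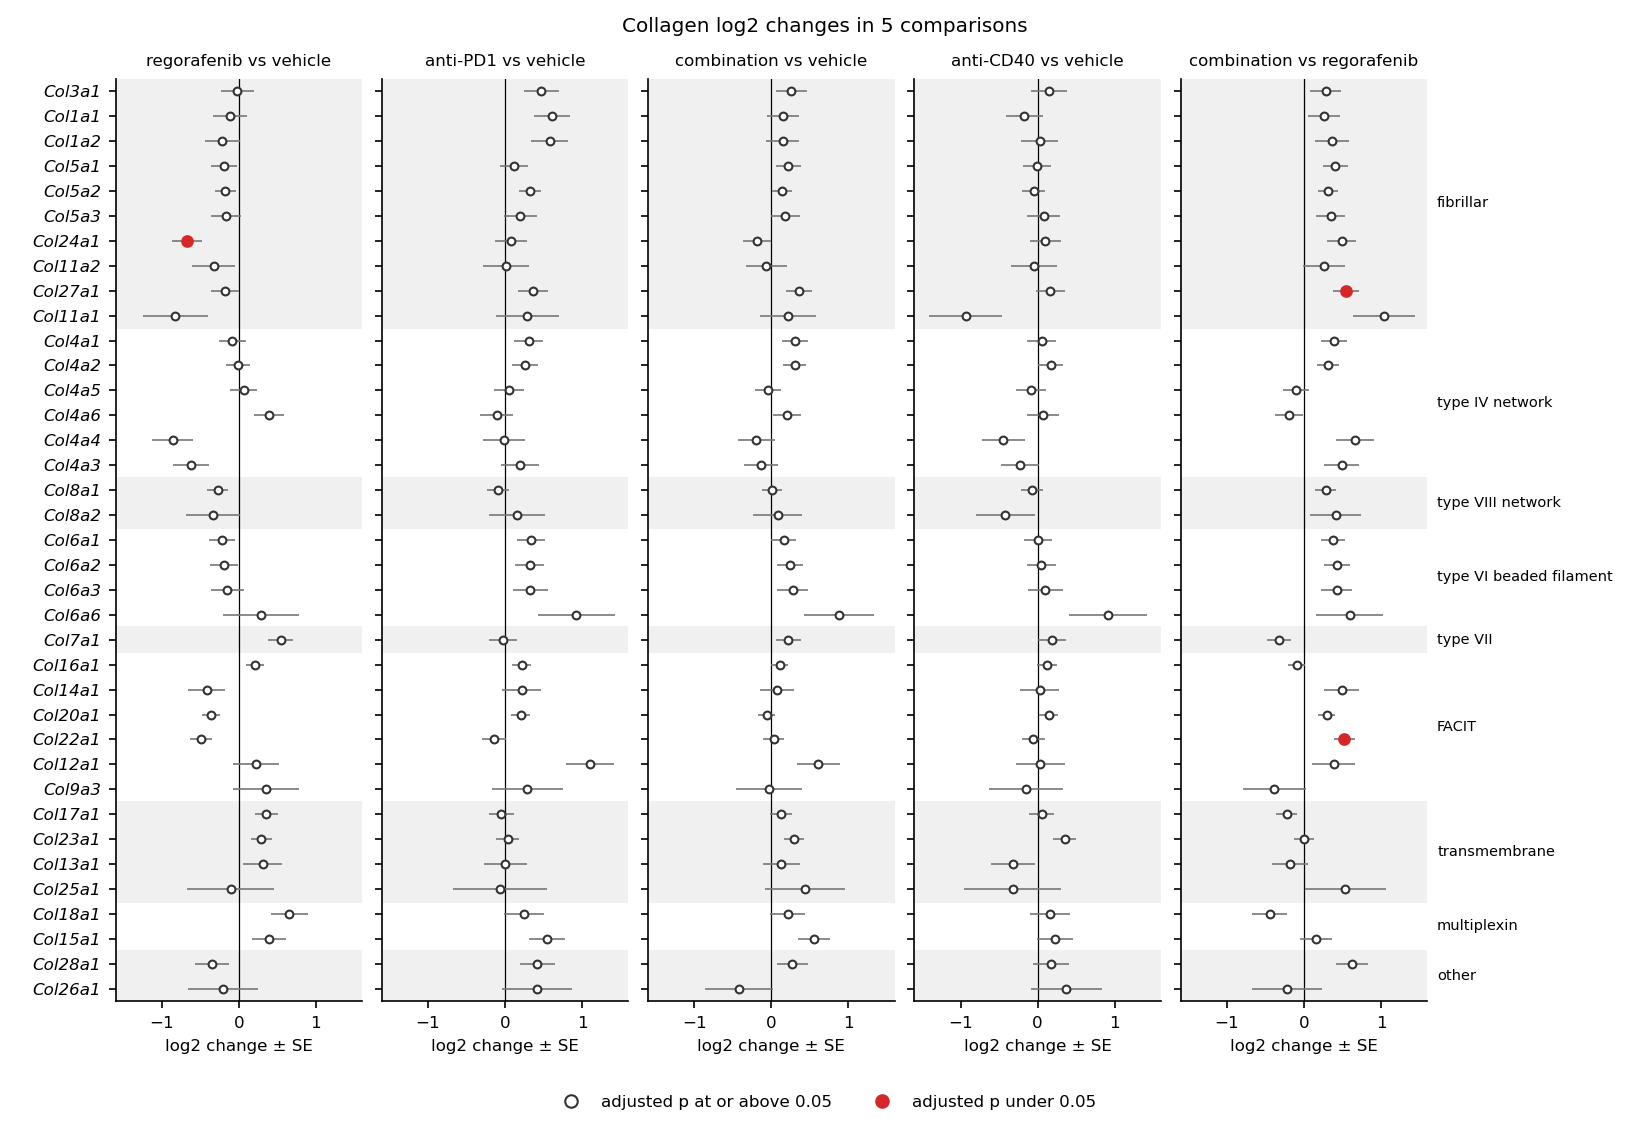
Log2 change ± SE (x axis) of the 37 collagen genes in 5 comparisons, grouped by class; filled points passed an adjusted p of 0.05. Only Col24a1 passed with regorafenib, at -0.68, and Col22a1 and Col27a1 passed in the combination against regorafenib, at 0.52 and 0.54.

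The fibrillar collagens held 2 of the 3 calls. Col24a1, a minor fibrillar chain known from developing bone, had 3.06, 3.07, 2.397 and 2.96 CPM in the vehicle libraries and 1.72, 2.21, 1.69 and 1.55 CPM with regorafenib. Every regorafenib library lay below every vehicle library. Col24a1 fell by 0.68 on the log2 scale (SE 0.20, edgeR adjusted p = 0.0469). That call stood in 1 of 8 runs that left out 1 library, the run without regorafenib 2 (adjusted p = 0.0388), and the change ran from -0.80 to -0.61 over those runs. In the other groups Col24a1 averaged 3.04 ± 0.66 CPM (anti-PD1, SD, n = 3), 2.52 ± 0.61 (combination, n = 5) and 3.09 ± 0.37 (anti-CD40, n = 3). Of all genes 7.88% were lower in every regorafenib library than in any vehicle library, and of the collagens 5 of 37 were: Col24a1, Col22a1, Col20a1, Col4a3 and Col4a4.

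Col24a1 and Col27a1 are shown by the 100 bases before the start that RefSeq gives on GRCm38.p6, because they carry the fibrillar calls. The stretches are chr3:145292372-145292471 and chr4:63215312-63215411, on the plus strand. Capitals mark the GC box GGGCGG, a common promoter element.
Col24a1: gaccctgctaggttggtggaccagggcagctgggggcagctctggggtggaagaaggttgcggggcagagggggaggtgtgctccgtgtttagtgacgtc
Col27a1: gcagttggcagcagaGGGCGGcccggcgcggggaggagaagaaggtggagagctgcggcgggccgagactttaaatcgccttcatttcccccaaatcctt
The RefSeq start of Col27a1 lies 1408 bases inside the gene as GENCODE draws it, so this stretch is intronic there. Neither stretch held any of the other 3 motifs searched, which are spelled out beside Col7a1.

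Col27a1, a fibrillar chain known from cartilage, had 2.06, 2.66, 2.76 and 2.97 CPM with regorafenib and 4.98, 3.25, 3.23, 4.04 and 3.54 CPM with the combination. The groups did not overlap. It rose by 0.54 on the log2 scale in the combination (SE 0.17, edgeR adjusted p = 0.0469). Of the runs without 1 library, only the run without combination 2 kept that call (adjusted p = 0.0403). Vehicle lay between, at 2.96 ± 0.60 CPM (SD, n = 4), and vehicle 1 alone reached 3.85 CPM.

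The main stromal chains did not pass in any comparison. Col1a1, the main chain of type I collagen, had 52.1, 32.9, 43.6 and 33.9 CPM with vehicle, 41.3, 31.98, 35.9 and 41.0 with regorafenib, 91.3, 47.3 and 46.9 with anti-PD1, 56.9, 37.1, 49.0, 47.8 and 34.1 in the combination group, and 33.7, 40.9 and 33.8 under anti-CD40. Anti-PD1 1 stands above all other libraries, and the groups overlap. That library also had the highest mean of the fibroblast markers (summed level 961 CPM), Schwann cell, adipocyte and smooth muscle markers, and 16478 CPM of salivary gland markers, and the part of these tissues in its collagen levels was not tested. The log2 change of Col1a1 with anti-PD1 was 0.60 ± 0.23 (SE, edgeR adjusted p = 0.422), and 0.21 without anti-PD1 1. Col1a2, its partner chain, changed by 0.58 ± 0.24 with anti-PD1 (edgeR adjusted p = 0.461), and by 0.23 without that library. Against anti-PD1 the combination was at -0.46 ± 0.22 for Col1a1 and -0.43 ± 0.23 for Col1a2 (edgeR adjusted p = 0.513 and 0.574).

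Col3a1, which forms fibrils with type I, averaged 82.0 ± 18.1 CPM with vehicle, 80.8 ± 4.01 with regorafenib, 114 ± 30.8 with anti-PD1, 98.1 ± 28.5 in the combination group and 90.9 ± 14.04 under anti-CD40. Its log2 change with regorafenib was -0.02, with a 95% interval from -0.48 to 0.43. Col5a1 and Col5a2, chains of the type V collagen that starts fibrils, were at -0.19 and -0.18 with regorafenib and at 0.41 and 0.31 in the combination against regorafenib (edgeR adjusted p = 0.103 and 0.128). All 10 fibrillar genes were lower with regorafenib than with vehicle (median -0.18), and all 10 were higher in the combination than with regorafenib (median 0.36). Anti-PD1 also had all 10 higher than vehicle (median 0.31). In that comparison all 10 fibroblast markers (median 0.26), all 8 Schwann cell markers and all 7 tested leukocyte markers were higher too, as were 5 of 7 adipocyte markers (median 1.36), with no call, and their part in the collagen values was not tested. Col2a1, the fibrillar collagen of cartilage, had at most 7 counts in a library, and only 3 of 10 cartilage markers had enough counts to be tested.

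**Figure D3:**
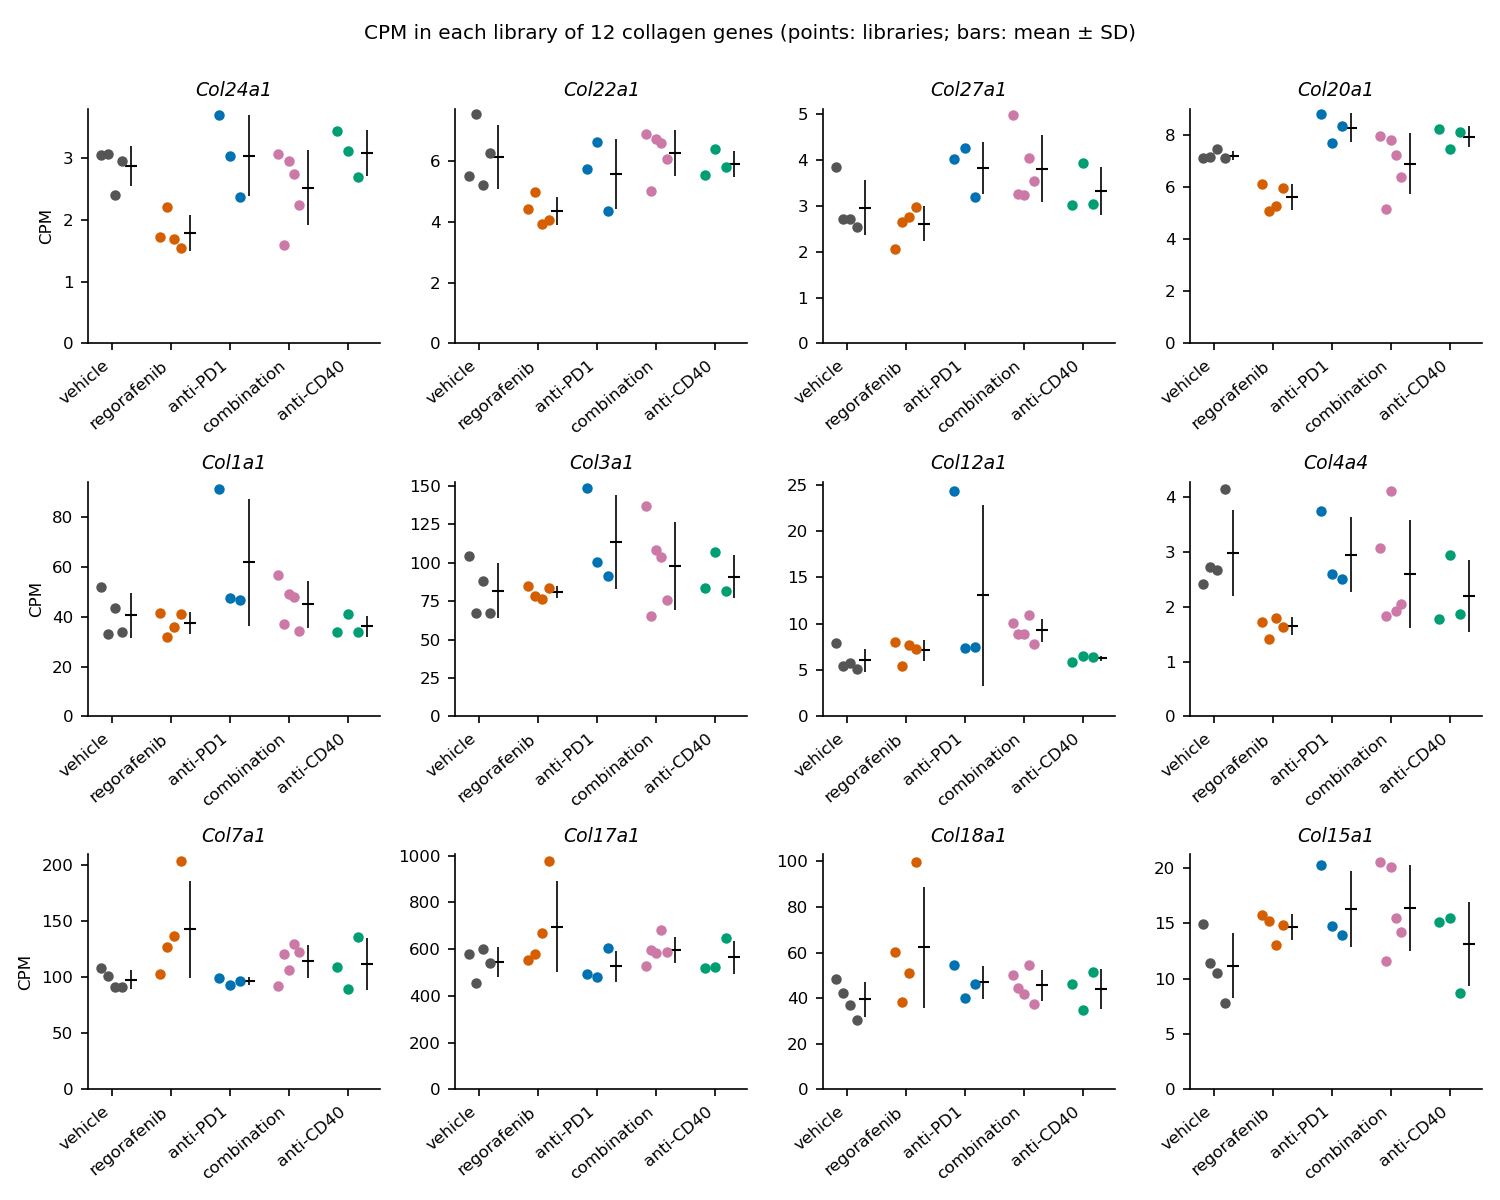
CPM of 12 collagen genes in every library (points, by treatment group on the x axis) with the group mean ± SD (bars). Col24a1, Col22a1, Col20a1 and Col4a4 are lower in every regorafenib library than in any vehicle library, anti-PD1 1 stands alone for Col12a1 at 24.3 CPM, and regorafenib 4 for Col7a1 at 204 CPM.

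None of the 6 type IV genes of the basement membrane passed edgeR's test in any comparison. Col4a1 and Col4a2 encode the chains found in nearly all basement membranes. Col4a1 averaged 79.01 ± 15.2 CPM with vehicle, 74.5 ± 9.86 with regorafenib, 97.7 ± 17.7 with anti-PD1, 97.4 ± 16.6 in the combination group and 81.9 ± 19.99 under anti-CD40. Its log2 change was -0.08 with regorafenib and 0.39 ± 0.17 in the combination against regorafenib (edgeR adjusted p = 0.142), and Col4a2 was at -0.01 and 0.31. The groups overlap for both genes.

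Col4a3 and Col4a4 encode chains of a more restricted network, best known from the kidney filter. Col4a4 had 2.42, 2.72, 2.66 and 4.15 CPM with vehicle and 1.72, 1.42, 1.80 and 1.64 CPM with regorafenib. The groups did not overlap, but the log2 change of -0.86 ± 0.26 missed the threshold (edgeR adjusted p = 0.0555). Col4a4 passed in 4 of 11 other settings, DESeq2 among them, and in none of 8 runs without 1 library. Col4a3 changed by -0.62 ± 0.24 in the same comparison (edgeR adjusted p = 0.114). In the combination against regorafenib Col4a4 was at 0.66 ± 0.25 (edgeR adjusted p = 0.0945), and every combination library lay above every regorafenib library. The margin was narrow, with 1.83 CPM in the lowest combination library and 1.80 CPM in the highest regorafenib library. Of all genes 7.24% showed that separation upward, and of the collagens 3 of 37 did: Col4a4, Col22a1 and Col27a1. Col4a5 and Col4a6, found in epithelial and smooth muscle basement membranes, were at 0.06 and 0.39 with regorafenib, the second with regorafenib 4 at 9.84 CPM and the other 3 libraries at 5.09 to 5.80.

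The 6 type IV genes lie head to head in pairs on chromosomes 8, 1 and X. The starts of Col4a1 and Col4a2 overlap by 22 bases, those of Col4a4 and Col4a3 are 71 bases apart, and those of Col4a6 and Col4a5 are 1308 bases apart (GENCODE starts on GRCm38). The stretch between Col4a4 and Col4a3 is printed because the 2 genes are read away from it on opposite strands. It is chr1:82586850-82586920, read on the minus strand toward Col4a4, from RefSeq promoter entries on GRCm38.p6.
Col4a4 and Col4a3: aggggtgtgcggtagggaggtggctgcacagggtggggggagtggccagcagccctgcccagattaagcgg
It held none of the 4 motifs searched. Across the 19 libraries the pairs moved together on the log2 CPM scale, with a Pearson r of 0.96 and a Spearman rho of 0.94 for Col4a1 and Col4a2 (permutation p = 1e-05 for both, the smallest that 100000 permutations give). Without the 2 libraries farthest from the median of Col4a1, r was 0.94. For Col4a3 and Col4a4 r was 0.76 and rho 0.75 (permutation p = 0.00033 and 0.00046, adjusted p = 0.00264 and 0.00404 over 232 relations). It was 0.76 without anti-PD1 2 and vehicle 4, and 0.59 after group means were removed. For Col4a5 and Col4a6 r was 0.61 (permutation p = 0.00426, adjusted p = 0.0176) and rho 0.46 (permutation p = 0.0474, adjusted p = 0.0948), and r fell to 0.28 without vehicle 2 and regorafenib 4, so the pooled relation rests on those libraries. After group means were removed r was 0.75. The counting strand is not given in the sources used here, and reads in the overlap of Col4a1 and Col4a2 cannot be assigned to 1 of them.

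Other chains that assemble into 1 protein also moved together. So did Col1a1 and Col3a1, of types I and III, with r = 0.88 and rho = 0.82. Their permutation p was 1e-05 for r and 7e-05 for rho (adjusted p = 0.000211 and 0.00108). Moving together was therefore not confined to chains of 1 protein, and its share among all gene pairs was not computed. Col1a1 and Col1a2 had r = 0.96 and rho = 0.88, Col6a1 and Col6a2 r = 0.96 and rho = 0.93 (permutation p = 1e-05 in each case, adjusted p = 0.000211 for r and 0.000258 for rho). Without the 2 farthest libraries r was 0.91 and 0.95. Per kilobase, Col1a1 was 1.05 to 1.36 times Col1a2 over the 19 libraries (median 1.26), Col4a1 was 1.14 to 1.42 times Col4a2 (median 1.31), and Col6a1 was 2.16 to 2.63 times Col6a2 (median 2.41). These ratios depend on the length used. Per kilobase of the longest transcript the median ratio of Col1a1 to Col1a2 was 0.60 (0.50 to 0.65), which turns its direction. On that length the medians were 1.44 for Col4a1 to Col4a2 and 1.52 for Col6a1 to Col6a2. Col5a1 and Col5a2 had r = 0.79 and rho = 0.88 (permutation p = 9e-05 and 1e-05, adjusted p = 0.00116 and 0.000258), and r = 0.88 without combination 3 and combination 1. Col8a1 and Col8a2, chains of type VIII networks of vessel walls and the cornea, had r = 0.45 and rho = 0.47 (permutation p = 0.0557 and 0.0446, adjusted p = 0.101 and 0.0922), so their relation did not pass. Without vehicle 3 and combination 4 r was 0.56. Their ratio per kilobase of exon ran from 4.15 to 14.6.

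**Figure D4:**
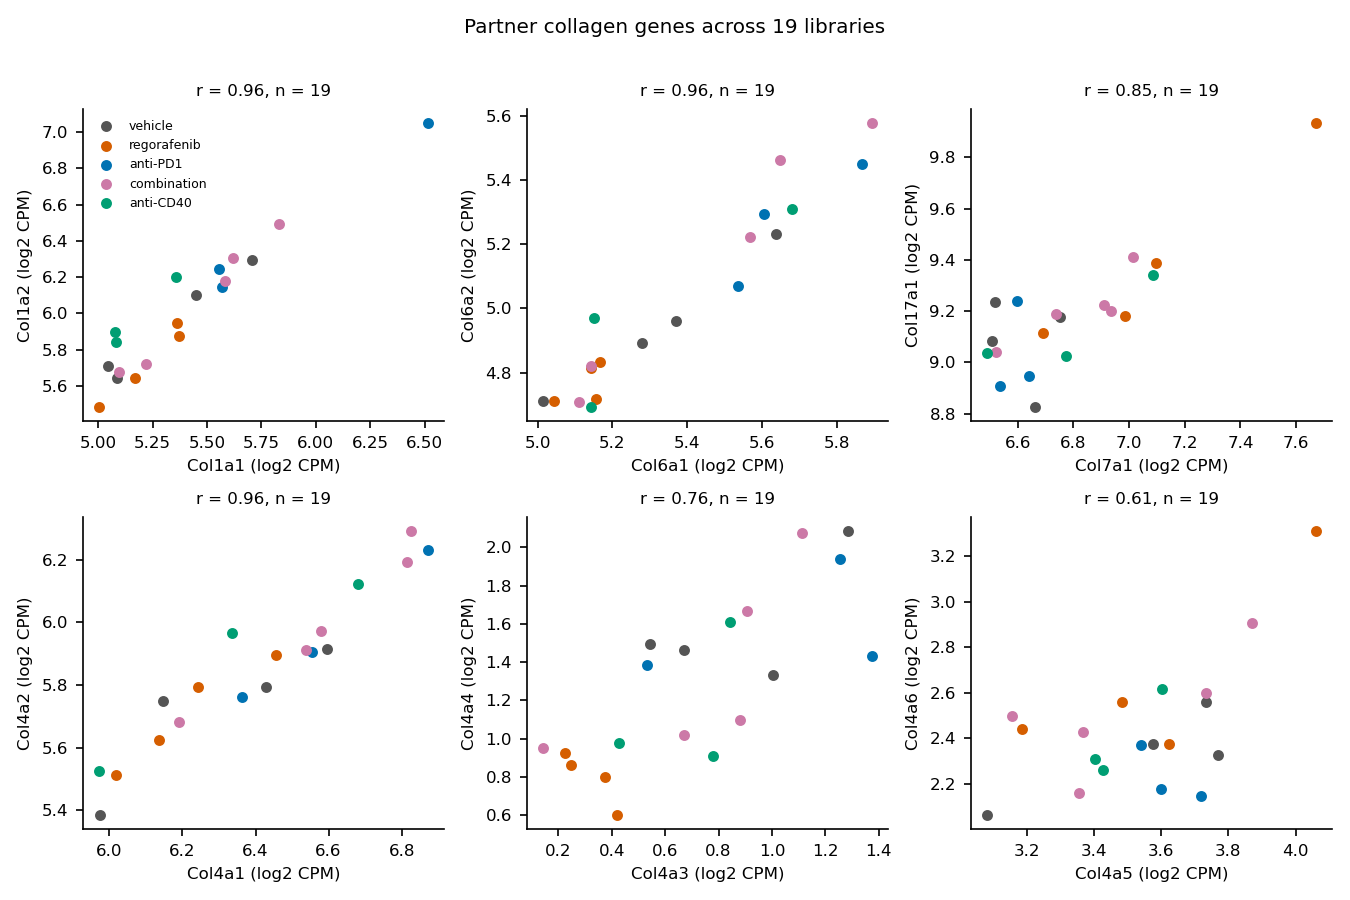
Log2 CPM of 6 pairs of collagen genes, 1 point a library (n = 19), coloured by treatment group. Points of Col1a1 and Col1a2, Col6a1 and Col6a2, and Col4a1 and Col4a2 fall along a line (r = 0.96 for each), while Col4a5 and Col4a6 scatter (r = 0.61).

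Type VI collagen forms beaded filaments around stromal cells and muscle fibres. Col6a1 averaged 40.5 ± 7.21 CPM with vehicle, 34.9 ± 1.34 with regorafenib, 51.1 ± 6.39 with anti-PD1, 45.3 ± 10.5 in the combination group and 40.6 ± 9.13 under anti-CD40. Its change with regorafenib was -0.22 on the log2 scale, and 0.38 ± 0.16 in the combination against regorafenib (edgeR adjusted p = 0.137). Col6a3, the longest chain of type VI, was at -0.15 and 0.43 in those comparisons. All 4 type VI genes were higher in the combination than with regorafenib (median 0.43), and none passed. The type VIII genes Col8a1 and Col8a2 were at -0.27 and -0.33 with regorafenib, with no call, and the interaction of Col8a1 was 0.37 ± 0.20 (edgeR adjusted p = 0.377).

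FACIT collagens sit on the surface of fibrils or at tissue borders. Col22a1, found at junctions such as that of muscle and tendon, had 5.52, 7.56, 5.22 and 6.28 CPM with vehicle, 4.41, 5.01, 3.94 and 4.08 with regorafenib, and 6.89, 5.03, 6.74, 6.59 and 6.08 with the combination. All 4 regorafenib libraries were below all libraries of both other groups, by a narrow margin where regorafenib 2 meets combination 2. Col22a1 rose by 0.52 on the log2 scale in the combination against regorafenib (SE 0.14, edgeR adjusted p = 0.0252). The call was lost in the runs without combination 1, combination 3, regorafenib 1, regorafenib 3 or regorafenib 4, where the highest adjusted p was 0.0807, and was kept without each of the other 4. Against vehicle its change with regorafenib was -0.49 ± 0.15 (edgeR adjusted p = 0.0505). The interaction, which compares the effect of regorafenib with and without anti-PD1, was 0.66 ± 0.21 (edgeR adjusted p = 0.128).

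Col20a1, a scarce FACIT-like chain, had 7.11, 7.15, 7.46 and 7.11 CPM with vehicle and 6.13, 5.09, 5.29 and 5.98 with regorafenib. The vehicle libraries are tight and the groups do not overlap, yet the change of -0.36 ± 0.12 was not called (edgeR adjusted p = 0.0711). Against anti-PD1 the combination was at -0.26 ± 0.12 (edgeR adjusted p = 0.465). Col20a1 averaged 8.28 ± 0.56 CPM with anti-PD1, 6.90 ± 1.16 in the combination group and 7.95 ± 0.41 under anti-CD40. Its exons overlap another annotated gene on the same strand, and those of Col22a1 a gene on the opposite strand. Both counts are therefore uncertain to an extent that was not measured. The same holds for Col3a1 and Col7a1 (same strand) and for Col4a1, Col4a2, Col4a3, Col5a1, Col15a1, Col9a3 and Col6a6 (opposite strand). Col4a1 and Col4a2 share only 22 bases with each other, and the size of the other overlaps was not measured.

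Col12a1, which coats type I fibrils, had 24.3, 7.36 and 7.496 CPM with anti-PD1 and 7.90, 5.49, 5.81 and 5.14 with vehicle. The first anti-PD1 library carries the difference. The log2 change of Col12a1 was 1.10 ± 0.31 (edgeR adjusted p = 0.246), and 0.28 without anti-PD1 1. With the combination it averaged 9.31 ± 1.23 CPM (SD, n = 5), a change against vehicle of 0.61 ± 0.28 (edgeR adjusted p = 0.449). Col14a1, another fibril coat, averaged 18.3 ± 5.59 CPM with vehicle and 13.7 ± 1.45 with regorafenib, and its log2 change of -0.42 ± 0.24 was not called (edgeR adjusted p = 0.290). Of the remaining FACIT genes, Col16a1 stayed within 0.21 of vehicle on the log2 scale in each treated group, and Col9a3 had 4 to 21 counts a library, too few to show any but a large difference.

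Collagens of the epithelial anchor were higher with regorafenib in mean, without a call. Col17a1 had 579, 454, 602 and 542 CPM with vehicle and 554, 581, 669 and 979 with regorafenib. Regorafenib 4 stands alone and the groups overlap. Its log2 change was 0.35 ± 0.15 (edgeR adjusted p = 0.151), and between 0.14 and 0.45 when single libraries were left out. Col7a1, the anchoring fibril, had 108, 101, 91.6 and 90.9 CPM with vehicle and 103, 127, 137 and 204 with regorafenib, a log2 change of 0.54 ± 0.17 (edgeR adjusted p = 0.0616). The change of Col7a1 was 0.32 to 0.67 over the runs without 1 library, and the run without regorafenib 1 called it. In the combination against regorafenib, Col7a1 was at -0.32 and Col17a1 at -0.22.

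Col7a1 and Col17a1 moved together over the 19 libraries with r = 0.85 and rho = 0.63 (permutation p = 7e-05 and 0.00482, adjusted p = 0.00108 and 0.0183). Without regorafenib 4 and regorafenib 3 r was 0.61. The stretch before the start of Col7a1 is shown because it is the anchor gene nearest to the threshold. It is chr9:108953486-108953585 on the plus strand, from RefSeq on GRCm38.p6, with the GC box in capitals.
Col7a1: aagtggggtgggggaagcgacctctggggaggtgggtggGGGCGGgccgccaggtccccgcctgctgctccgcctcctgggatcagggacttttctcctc
RefSeq promoter entries were matched for 29 of 37 members, with 31 stretches of 100 bases. Of these 16 held GGGCGG on either strand, against 24.7% of 32851 stretches of all genes, while the CCAAT box was in 3 (18.9% of all). The TATA box, TATAAA, was in 1 (5.56%), and the AP-1 motif, TGANTCA, was in 1 (2.73%). The stretches of the members had a median GC content of 65%, and those of all genes 55%.

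The multiplexins, which lie in the outer basement membrane and release fragments such as endostatin, gave no call. Col18a1 had 48.4, 42.2, 37.2 and 30.2 CPM with vehicle and 60.1, 38.4, 51.2 and 99.6 with regorafenib. The spread of the second group is wide. The log2 change was 0.66 ± 0.24 (edgeR adjusted p = 0.108), with 0.33 to 0.83 over the runs without 1 library, of which the run without regorafenib 2 called it. The interaction was -0.70 ± 0.34 (edgeR adjusted p = 0.344). Col15a1, the other multiplexin, averaged 11.2 ± 2.93 CPM with vehicle, 14.7 ± 1.18 with regorafenib, 16.3 ± 3.46 with anti-PD1, 16.4 ± 3.85 in the combination group and 13.1 ± 3.80 under anti-CD40. Its change in the combination against vehicle was 0.55 ± 0.21 (edgeR adjusted p = 0.350), the smallest p of a collagen there, before Col23a1 at 0.29 ± 0.13 and Col27a1 at 0.36 ± 0.17.

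Among the others, Col28a1, a collagen of peripheral nerve, averaged 1.85 ± 0.24 CPM with regorafenib and 2.85 ± 0.60 with the combination, a log2 change of 0.62 ± 0.21 (edgeR adjusted p = 0.0614). The transmembrane Col23a1 had 14.2 to 15.3 CPM under anti-CD40 and 9.77 to 13.1 with vehicle, a change of 0.35 ± 0.15 (edgeR adjusted p = 0.817). Every anti-CD40 library lay above every vehicle library for Col23a1 and Col20a1, 2 of 37 collagens against 3.29% of all genes, and below for Col11a1, 1 of 37 against 2.57%. Col11a1 and Col6a6 were next by p in that comparison, at -0.93 ± 0.47 and 0.91 ± 0.50, and Col11a1 had 3 to 21 counts a library.

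Genes that make, process or bind collagen were followed in 8 lists, whose counts are to be read beside the 6.32% of all genes called with regorafenib and the 10.5% in the combination against regorafenib. With regorafenib, 1 of 22 genes for collagen folding and modification rose, Crtap, a partner of collagen prolyl hydroxylase (log2 change 0.33 ± 0.07, edgeR adjusted p = 0.0134). Of 7 genes for procollagen processing 2 fell, Adamts14, which removes the amino propeptide, at -0.95, and Pcolce2, an enhancer of the removal of the carboxy propeptide, at -0.59. The collagen receptor Ddr2 fell by 0.46 on the log2 scale, 1 of 11 receptors. Of 15 degradation genes Timp3, an inhibitor of matrix proteases, fell by 0.51. None of 6 crosslinking genes passed.

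Fibril partners gave 2 of 17 calls with regorafenib, both down. Tnxb, which links collagen fibrils, fell by 0.68 on the log2 scale (edgeR adjusted p = 0.0107), a call that all 8 runs without 1 library kept. Dcn, a small proteoglycan on fibrils, was at -0.43, at the threshold, and 1 of 8 such runs called it. Of 17 basement membrane partners 3 fell, Lama2, Nid1 and Dst, at -0.51, -0.50 and -0.35. In the same list 2 rose, Itga6 at 0.58 ± 0.11 (edgeR adjusted p = 0.00868, kept in 8 of 8 runs) and Lama3 at 0.75. Both belong to the epithelial anchor. Dst, which fell, also has a part there, but counts per gene do not show which cells its RNA came from. Of 19 genes of TGF-beta and PDGF signalling Pdgfrb alone passed, at -0.51. Of these 13 calls, those of Crtap, Tnxb and Itga6 stood in all 8 runs without 1 library, and the other 10 in 1 to 4 of them.

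In the combination against regorafenib, the calls of these lists pointed up except for 1. Plod1, Sec23a and Tmem38b rose and Ppib fell, 4 of 22 in folding and modification, at 0.43, 0.28, 0.36 and -0.26. Adamts14 rose by 0.77 on the log2 scale, and the receptors Ddr2 and Itga11 by 0.54 and 0.86. Among fibril partners Tnxb, Eln, Fbn1 and Prelp rose, 4 of 17, with Eln, the core of elastic fibres, at 0.76 ± 0.17 (edgeR adjusted p = 0.0127). Lama2, Nid1, Dst and Lamc1 rose, 4 of 17 basement membrane partners, at 0.62, 0.58, 0.34 and 0.34. In signalling Tgfbr3, Pdgfra, Pdgfrb and Smad3 rose, 4 of 19, led by Tgfbr3 at 0.45 ± 0.08 (edgeR adjusted p = 0.00504). Timp3 rose by 0.48, and no crosslinking gene passed, though all 6 were higher (median 0.35). The calls of Ddr2, Tnxb, Eln, Lama2, Nid1, Tgfbr3 and Pdgfra stood in all 9 runs without 1 library, and the other 13 in 1 to 7 of them.

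No gene of the 8 lists passed in the other 4 comparisons of 2 groups, where the smallest edgeR adjusted p was 0.129, in signalling in the combination against vehicle. The interaction called Dst alone, at 0.64 ± 0.14 (edgeR adjusted p = 0.0442), 1 of 17 basement membrane partners, beside 0.627% of all genes. The test of any difference among the 5 groups called 4.49% of all genes. In these lists it called Ddr2 (1 of 11 receptors), and Tnxb and Eln (2 of 17 fibril partners). It also called Itga6, Lama2 and Dst (3 of 17 basement membrane partners), Tgfbr3 and Tgfbr2 (2 of 19 in signalling), and none in the remaining lists.

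Markers of several cell types moved with the regorafenib results, and in bulk tissue fewer cells of a type and less RNA per cell cannot be told apart. Marker calls, too, are to be read beside the 6.32% of all genes called with regorafenib and the 10.5% in the combination against regorafenib. With regorafenib all 12 squamous epithelium markers were higher than with vehicle and 5 rose, with a summed level of 72322.5 to 74808.5 CPM against 62095.5 to 67207.6. Skeletal muscle markers were lower in 13 of 14 and 5 fell, with 23250.6 to 29670.4 CPM against 34772.8 to 40404. Fibroblast markers were lower in 8 of 10, with 1 call in each direction, at 549 to 655 CPM against 690 to 847. That sum mostly follows Dcn, with 7537 to 15183 counts a library, while the next member, Dpt, had at most 2310. Endothelial markers were lower in 10 of 10 with no call, at 274 to 337 CPM against 294 to 420. None of the markers of these 4 lists was at 0 in any library.

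In the combination against regorafenib the marker lists lay the other way. All 12 epithelial markers were lower and 4 fell, and all 14 muscle markers were higher and 6 rose. Fibroblast markers were higher in 8 of 10 with 2 calls, at 569 to 889 CPM with the combination, and endothelial markers in 9 of 10 with no call. Of the remaining lists, with regorafenib against vehicle 1 of 10 smooth muscle and pericyte, 1 of 8 Schwann cell and 1 of 7 adipocyte markers fell and 1 of 7 leukocyte markers rose, and none of 9 salivary gland, 3 cartilage or 3 bone markers passed. In the combination against regorafenib 3 smooth muscle and pericyte markers, 1 Schwann cell and 1 bone marker rose, and none of the salivary gland, cartilage, adipocyte or leukocyte markers passed. With the epithelial marker mean as a covariate, Col24a1 was at -0.27 in regorafenib against vehicle (edgeR adjusted p = 0.834). With the muscle marker mean, Col24a1 was at -0.48 (edgeR adjusted p = 0.285) and Col22a1 at 0.31 in the combination against regorafenib (edgeR adjusted p = 0.467). With the fibroblast marker mean, Col27a1 was at 0.36 in that comparison (edgeR adjusted p = 0.327), and the collagen median was 0.033 in regorafenib against vehicle and 0.029 in the combination against regorafenib. The epithelial mean was higher in every regorafenib library than in any other library. The fibroblast mean was lower in every regorafenib library (at most 3.93) than in any vehicle library (at least 3.94). Combination libraries reached down to 3.70. Where the mean separates the groups, these fits cannot fully separate the treatment from the marker mean. The fibroblast list also holds Dcn, itself a fibril partner. The part of these cell types in the collagen results was not tested beyond these fits.

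Across the 19 libraries, 222 relations of a collagen gene with the mean log2 CPM of a marker list were computed, in 1 family with the 10 pairs above. Fibroblast markers had 21 positive relations past an adjusted p of 0.05 for Pearson's r and no negative one. Endothelial markers had 15 positive and 1 negative, Schwann cell markers 13 and 0, and smooth muscle and pericyte markers 10 and 2. Muscle markers had 9 and 4 and epithelial markers 3 and 8, so such relations were not confined to the fibroblast list. The share of all genes with such relations was not computed, so the counts show no trait particular to the collagens. With the fibroblast markers Col5a2 stood highest, at r = 0.92 and rho = 0.91, followed by Col6a2 with r = 0.92 and rho = 0.91. Col1a2 had r = 0.90 and rho = 0.88. For each of the 3 genes the permutation p was 1e-05 for r and rho (adjusted p = 0.000211 and 0.000258). Without anti-PD1 1 and combination 1, r was 0.86 for Col5a2, 0.88 for Col6a2 and 0.85 for Col1a2. After group means were removed r was 0.90 for Col5a2, 0.88 for Col6a2 and 0.87 for Col1a2, so the relation also held inside the treatment groups.

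Col4a1 followed the endothelial markers with r = 0.79 and rho = 0.81 (permutation p = 0.00011 and 7e-05, adjusted p = 0.00116 and 0.00108, r = 0.75 without regorafenib 3 and 2), and with r = 0.92 after group means were removed. Col22a1 followed the muscle markers with r = 0.74 and rho = 0.71 (permutation p = 0.00048 and 0.00119, adjusted p = 0.00367 and 0.0087, r = 0.69 without regorafenib 4 and anti-CD40 2), and with 0.55 inside groups. Col28a1 followed the Schwann cell markers with r = 0.78 and rho = 0.62 (permutation p = 0.00011 and 0.00574, adjusted p = 0.00116 and 0.0215, r = 0.70 without regorafenib 2 and anti-PD1 1), and with 0.71 inside groups. The libraries of the regorafenib group stand apart in the epithelial mean, and the values inside groups are therefore given alone for it: 0.53 for Col7a1, 0.31 for Col17a1, -0.45 for Col24a1 and -0.65 for Col4a4.

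**Figure D5:**
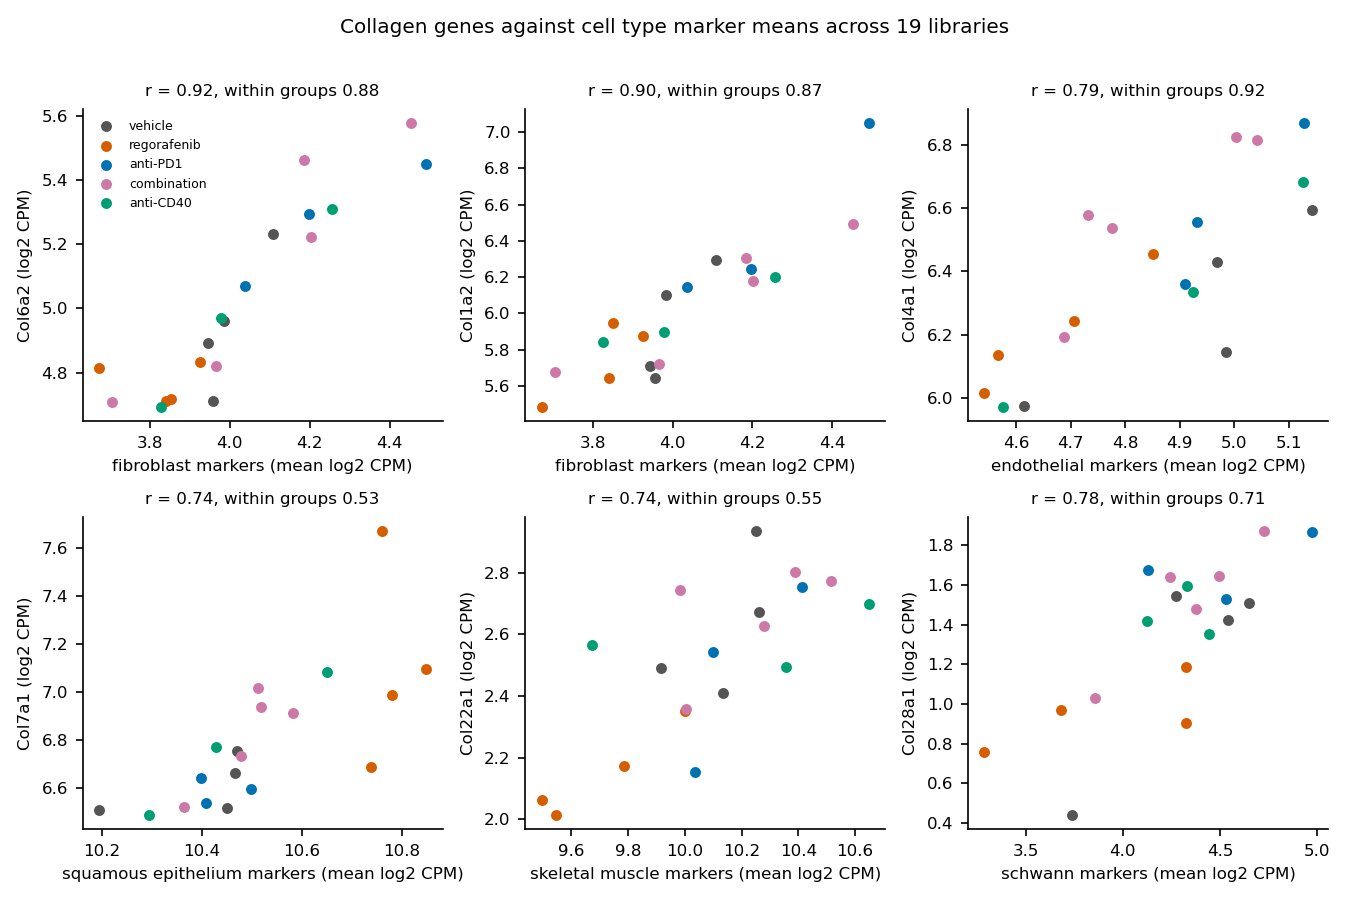
Log2 CPM of a collagen gene (y axis) against the mean log2 CPM of a cell type marker list (x axis), 1 point a library (n = 19), coloured by treatment group; titles give r over all libraries and r of deviations from group means. Col6a2 and Col1a2 rise with the fibroblast markers (r = 0.92 and 0.90), and the regorafenib libraries hold the 4 highest epithelial means.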

How the data were processed

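RNA was read as whole-number counts per gene that the authors deposited without normalization, in 1 table of 19 libraries. Per the labels' protocols, libraries came from a stranded poly(A) kit; STAR 2.7.2a, cutadapt 2.4 and GRCm38 are named per the submitters' processing notes. Counter, strand setting and annotation: not given in the sources used here. Symbols came from GENCODE M21 (55227 of 55487 IDs matched). After filterByExpr, 16909 genes were tested with edgeR 4.0.16 (R 4.3.3, TMM, robust quasi-likelihood on all 19 libraries with a mean for each group, leaving 14 degrees of freedom), two-sided, adjusted by Benjamini-Hochberg over all of them. CPM are scaled by TMM, log2 CPM used a prior count of 2, and SE is the absolute log2 change over the root of F. Per-kilobase levels use the union of exons. The fit was tested on simulated data.

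The members and gene lists were chosen with earlier results of these data known. Genes named were all collagens called, otherwise the 3 with the smallest p, 15 fixed collagens, and the 4 called genes of smallest p in each list; Nid1 with regorafenib, Col23a1 and others near a threshold or apart between groups were added after their values were seen. Alternatives tried were DESeq2 1.42.0, RLE scaling, no filter on low counts, only the groups compared, replicate blocks, muscle and salivary marker covariates, an exon length and GC offset, each library left out, and, chosen after seeing the data, fibroblast and epithelial covariates and the longest transcript as length. Cell type lists of fibroblast, epithelium, muscle, smooth muscle, endothelium, salivary gland, cartilage, bone, Schwann cell, adipocyte and leukocyte markers were counted, not tested as sets. Every pair of libraries of a group differed by more than sampling noise (lowest chi-square over its degrees of freedom 12.9).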

Additional observations from a re-analysis of the deposited data

Results flagged for a closer look

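In 6 of 111 collagens and groups of 4 or 5 libraries, 1 library stood far from the others (5.41%); chance flags about 1 in 20 groups. With vehicle, Col16a1 had 23.5 CPM in vehicle 1 and at most 17.99 in the others, Col27a1 3.85 in vehicle 1 and at most 2.72, and Col5a1 28.4 in vehicle 1 and at most 22.9. Col20a1 had 7.46 CPM in vehicle 3, with 7.15 next, a narrow gap in a tight group. Col28a1 had 1.26 CPM in vehicle 2 and at least 2.58 in the others. With regorafenib, Col4a6 had 9.84 CPM in regorafenib 4 and at most 5.80 in the others.

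Dst, one of whose products links keratin filaments to hemidesmosomes, differed in its response to regorafenib with and without anti-PD1. The difference was 0.64 on the log2 scale (edgeR adjusted p = 0.0442), and 4 of 16 runs without 1 library called it. In the same interaction 13 of 14 skeletal muscle markers were higher, with 2 called, and 11 of 12 squamous epithelium markers were lower, with no call. Of all genes 0.627% were called there, and 49.3% were higher. Which cells carry the difference in Dst was not tested.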

How the results depend on the processing

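All 3 collagen calls depend on the processing. Calls over all genes moved with the setting too, over ranges given below, so the collagen counts here have no fixed background. For regorafenib against vehicle the 1 call became 6 with DESeq2, which called 1684 of all genes (1069 in the main fit). The call became 2 with RLE scaling, 2 with only the groups compared and 5 with the salivary covariate. It became 0 with a replicate block on the title number, a replicate block on the column number, and the muscle, fibroblast or epithelial covariate, and 0 to 3 with 1 library left out. For the combination against regorafenib the 2 calls became 4 with DESeq2, 1 without a filter, 1 with the length and GC offset, 0 with the muscle, fibroblast or epithelial covariate, and 0 to 4 with 1 library left out. Under the replicate block on the title number 3 collagens were called there. The test of any difference called 1 with RLE scaling, 7 with DESeq2, 2 with the salivary covariate and 0 to 1 without 1 library, and the salivary covariate called 1 in the interaction. Replicate numbers gave no clear pairing of the libraries over the 500 most variable genes. Of 33 pairs with the same title number 17 had a correlation of deviations over 0.1 (range -0.68 to 0.76), and of 27 with the same column number 13. The median correlation was 0.13 by title number and 0.08 by column number, against -0.08 and -0.05 in the other pairs. A pairing is therefore not excluded.

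The median collagen change became 0.033 (fibroblast) and 0.10 (epithelial covariate) for regorafenib against vehicle, 0.029 and 0.051 for the combination against regorafenib, and -0.16 for the interaction with the epithelial covariate. Without 1 library it ran from -0.23 to -0.03, from 0.25 to 0.40 and from -0.07 to 0.20 in these comparisons. Col4a4 reversed to 0.073 in regorafenib against vehicle with the epithelial covariate. Calls over all genes ran from 0 with that covariate to 1684 with DESeq2 for regorafenib against vehicle (1069 in the report) and from 0 to 2496 for the combination against regorafenib (1768). For the test of any difference they ran from 6 to 2519 (760). RLE scaling moved the median of all genes by at most 0.00844. Col11a1, Col26a1 and Col9a3 have 1 to 21 counts a library, so only large differences could be seen in them. Testing only the groups compared gives no value for the test of any difference. Causes of these shifts were not tested.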
